A study of Drosophila melanogaster with 6 samples.

Results

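The nuclear proline tRNAs of the *Drosophila melanogaster* larval brain were described from a table of tRNA abundance measured by hydro-tRNAseq, a method in which mild alkaline hydrolysis breaks tRNAs into short pieces before sequencing, since base modifications and tight folding otherwise stop reverse transcription. The family was taken as every nuclear entry whose name begins with Pro, which gave 5 isodecoders out of the 106 tRNAs in the table, of which 84 were nuclear and 22 mitochondrial. The rule uses names only and no measured value, although this family was picked for description with earlier results of these data known. Isodecoders are tRNAs with the same anticodon and different bodies, and a name that ends in X stands for an isodecoder encoded by more than 1 identical gene. Anticodons are written as in the DNA, so that T stands for U.

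RNA came from whole brains of larvae at the L3 stage, raised at 25 °C according to the sample labels. The neuroblast-biased group comprised 3 samples of the genotype insc-Gal4>UAS-aPKC_caax, in which an inscuteable driver, active in neural progenitors, expresses a membrane-targeted form of aPKC that fills the brain with ectopic neuroblasts. The neuron-biased group comprised 3 samples of the wild-type strain Oregon R (Oregon-R-P2 in the study's methods), in which most brain cells are neurons but neuroblasts and glia are also present. This strain carries neither the driver nor the transgene, so that the transgenes, the strain and the cell composition cannot be told apart. The table holds tRNAs only, so the cell types could not be checked against marker genes. It gives 1 value per group and tRNA, the authors' mean after TMM normalization (trimmed mean of M-values, a scaling between libraries) and batch correction. The values below are therefore the authors' means, with no value per sample, and the read depth behind them is unknown. The table also carries the results of the authors' own test over the replicates, which were not used here. From the means alone, no difference below could be set against the replicate spread. In whole brains, fewer cells with a tRNA and less of it per cell cannot be told apart either.

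Proline tRNAs decode the CCN codons. The A at the first anticodon position of Pro-AGG is deaminated to inosine in eukaryotes, which lets that tRNA read CCU, CCC and, weakly, CCA. Pro-TGG reads CCA and can reach CCG by wobble, and Pro-CGG reads CCG. In *Drosophila* the tRNAs of proline and of glutamate are charged by the same bifunctional enzyme, glutamyl-prolyl-tRNA synthetase. Proline is a slow substrate for peptide bond formation, and runs of prolines stall ribosomes unless the factor eIF5A assists. Transcription of tRNA genes by RNA polymerase III depends on promoter elements inside the genes, the A and B boxes.

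The proline tRNAs were lower as a pool and one by one in the neuroblast-biased brains. The summed TMM of the family was 272794 in neuroblast-biased brains and 546025 in neuron-biased brains, a log2 fold change (neuroblast over neuron) of −1.00. All 5 isodecoders had a lower mean in neuroblast-biased brains, where 67.9% of the 84 nuclear isodecoders were lower. A log2 fold change of −0.5 or below was found for 4 of the 5, against 33.3% of the nuclear isodecoders, and one of −1 or below for 2 of the 5, against 9.52%. The median over all nuclear isodecoders was −0.27. Relative to that median, 4 of the 5 were still lower by at least 0.5, against 14.3% of the nuclear isodecoders, and the pool stood at −0.73.

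The 5 isodecoders spanned a wide range of levels. All 17 of their genes are 72 bp long, so their TMM values need no correction for length among themselves. Whether the method recovers these tRNAs equally well was not tested, and levels and shares compared between them carry that limit. The highest was 23.2 times the lowest in neuroblast-biased brains and 41.8 times the lowest in neuron-biased brains. Their order was the same in both groups, Pro-TGG-1-X first, followed by Pro-AGG-1-X, Pro-CGG-2-X, Pro-CGG-1-1 and Pro-CGG-3-1. With no spread for any mean, it cannot be said which neighbours in this order differ beyond replicate error.

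Pro-TGG-1-X, the tRNA for CCA and the only isodecoder with its anticodon, had a mean TMM of 139893 in neuroblast-biased brains and 305538 in neuron-biased brains. The ratio of the means was 0.458 and the log2 fold change −1.13, the fourth lowest of the 84 nuclear isodecoders. It ranked 27 by level in neuroblast-biased brains and 17 in neuron-biased brains. No other proline isodecoder differed by as much TMM: it made up 60.6% of the difference between the summed pools.

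Pro-AGG-1-X, the inosine tRNA for CCU and CCC, is likewise the only isodecoder with its anticodon. Its mean TMM was 76863 in neuroblast-biased brains and 136658 in neuron-biased brains, a ratio of 0.562 and a log2 fold change of −0.83. It made up 21.9% of the difference between the pools, less than its share of the proline genes (41.2%) or of the pool in either group.

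The Pro-CGG group, which reads CCG, holds the other 3 isodecoders, and they differed among themselves. Pro-CGG-2-X, the most abundant of them, had 41621 TMM in neuroblast-biased brains and 74905 TMM in neuron-biased brains, a log2 fold change of −0.85. Pro-CGG-1-1 had 8382 TMM in neuroblast-biased brains and 21619 TMM in neuron-biased brains. Its ratio of 0.388 and log2 fold change of −1.37 were the lowest of all 84 nuclear isodecoders. Pro-CGG-3-1 stood apart from the other proline tRNAs, with 6034 TMM in neuroblast-biased brains and 7304 TMM in neuron-biased brains. Its log2 fold change of −0.28 lay next to the median of the nuclear isodecoders, and relative to that median it was −0.0084. The log2 fold changes of the 5 isodecoders thus ranged over 1.09, and those of the other 4 over 0.54.

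**Figure D1:**
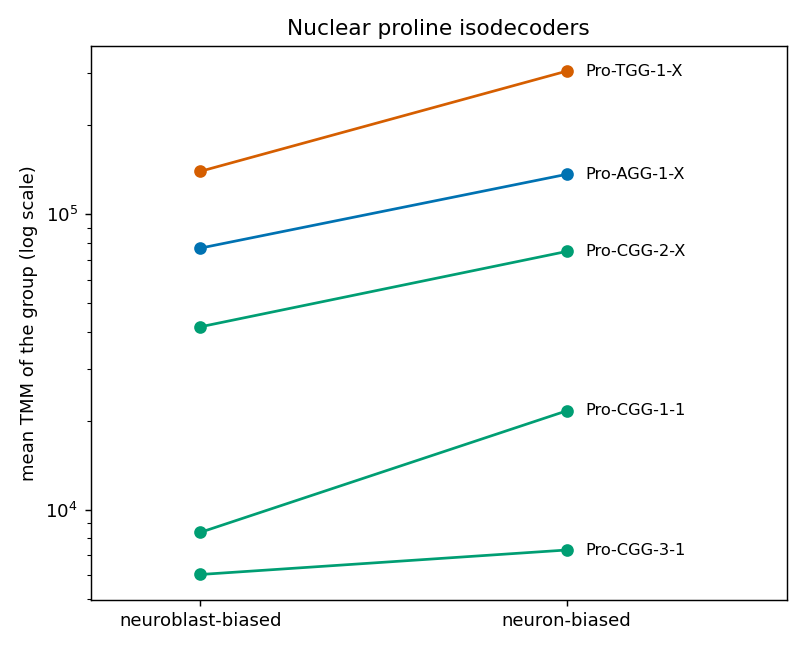
Authors' mean TMM (log scale) of each nuclear proline isodecoder in neuroblast-biased and neuron-biased brains, with lines joining the 2 means of an isodecoder and colours marking the anticodon. All 5 lines are lower at the neuroblast-biased end, steepest for Pro-CGG-1-1 (log2 fold change −1.37) and shallowest for Pro-CGG-3-1 (−0.28); there are no error bars because the table holds 1 mean per group.

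Within the Pro-CGG group the differing changes altered the make-up slightly. Pro-CGG-1-1 held 15.0% of the summed TMM of the group in neuroblast-biased brains and 20.8% in neuron-biased brains. Pro-CGG-3-1 held 10.8% in neuroblast-biased brains and 7.03% in neuron-biased brains, while Pro-CGG-2-X held 74.3% and 72.1% in the same order of groups. Summed, the group had 56038 TMM in neuroblast-biased brains and 103828 TMM in neuron-biased brains, a log2 fold change of −0.89. Reads shared by near-identical isodecoders were split between them in the counting, so the division among these 3 is less certain than their sum.

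The anticodon shares of the proline pool differed by a few percentage points between the groups. Pro-TGG took 51.3% of the summed proline TMM in neuroblast-biased brains and 56.0% in neuron-biased brains. Pro-AGG took 28.2% in neuroblast-biased brains and 25.0% in neuron-biased brains. Pro-CGG took 20.5% in neuroblast-biased brains and 19.0% in neuron-biased brains. These are shares of sums. With the isodecoders of an anticodon averaged instead, as the study does for its anticodon groups, Pro-CGG took 7.93% in neuroblast-biased brains and 7.26% in neuron-biased brains. The TMM of Pro-TGG was 1.82 times that of Pro-AGG in neuroblast-biased brains and 2.24 times in neuron-biased brains, so the log2 fold change of Pro-TGG was lower by 0.30. Pro-AGG and Pro-CGG differed by only 0.060 in their log2 fold changes, with a ratio of 1.37 in neuroblast-biased brains and 1.32 in neuron-biased brains.

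**Figure D2:**
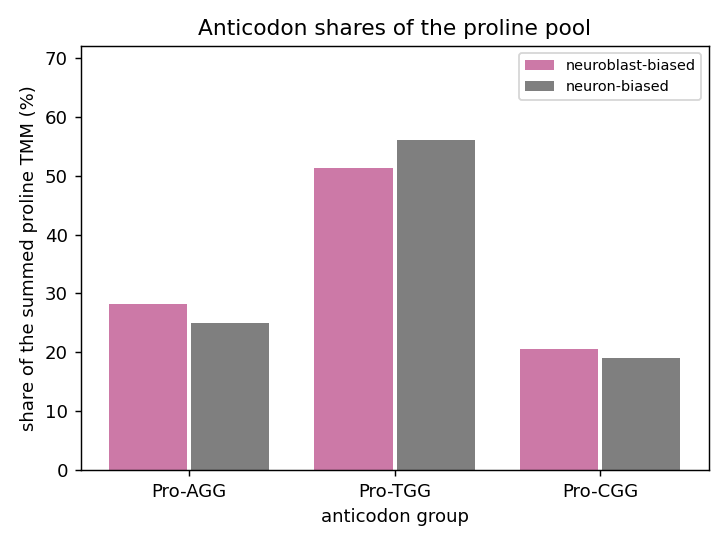
Share of the summed proline TMM (percent) held by each anticodon group in neuroblast-biased (left bar) and neuron-biased brains (right bar), from the authors' means. Pro-TGG holds the largest share in both groups, at 51.3% in neuroblast-biased and 56.0% in neuron-biased brains.

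The supply for each proline codon was calculated from these pools with the formula of the tRNA adaptation index, in which a wobble pair counts with a penalty (0.28 for I:C and 0.68 for U:G). CCA had the largest supply in both groups and was set to 1. The relative supply for CCU was 0.549 in neuroblast-biased brains and 0.447 in neuron-biased brains. CCC, which is read by the same tRNA through an I:C pair, was at 0.396 in neuroblast-biased brains and 0.322 in neuron-biased brains. For CCG it was 0.721 in neuroblast-biased brains and 0.660 in neuron-biased brains, and U:G reading by Pro-TGG provided 44.4% of the CCG supply in neuroblast-biased brains and 48.5% in neuron-biased brains. The place of CCG above CCU depended on these choices. With isodecoders averaged, CCG was at 0.453 in neuroblast-biased brains and 0.433 in neuron-biased brains, and without U:G reading at 0.401 in neuroblast-biased brains and 0.340 in neuron-biased brains, below CCU in each case. With the summed pools, the CCU, CCC and CCG values were closer to that of CCA in neuroblast-biased brains, by up to 0.102, although the supply itself was lower there for each of the CCN codons, by 0.83 (CCU and CCC) to 1.13 (CCA) on the log2 scale. The index rests on assumed penalties and does not account for charging or modification.

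The change of the proline pool was then set against the other nuclear families. With the initiator and elongator methionine tRNAs joined and selenocysteine counted apart, the nuclear isodecoders form 21 amino acid families. Proline had the second lowest log2 fold change of its summed TMM (−1.00). Tyrosine was lower, at −1.12 with 249409 TMM in neuroblast-biased brains and 540226 TMM in neuron-biased brains. Tryptophan followed at −0.92 and glycine at −0.78. At the other end stood serine, at 0.33, and selenocysteine, at 0.70. A summed log2 fold change of −0.5 or below was found for 6 of the 21 families (28.6%), and the median of the 20 other families was −0.16. Proline lay 0.84 below that median, and 0.72 below the pooled TMM of all other nuclear tRNAs, whose log2 fold change was −0.28.

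Tyrosine and tryptophan consist of 2 isodecoders each and proline of 5. Both tyrosine isodecoders were at −1.11 or lower, and those of tryptophan were at −1.04 and −0.11. In proline, Pro-TGG-1-X alone made up 60.6% of the difference between the pools. Of the 17 families with more than 1 isodecoder, 7 had a lower mean for every isodecoder in neuroblast-biased brains. There, 67.9% of all nuclear isodecoders were lower. Among the 12 families with at least 4 isodecoders, this held for 3. These were proline (5 of 5, from −1.37 to −0.28), glutamate (4 of 4, from −1.12 to −0.40) and alanine (5 of 5, from −0.84 to −0.13). The glutamate family, whose tRNAs share their charging enzyme with proline, had 752256 TMM in neuroblast-biased brains and 1143517 TMM in neuron-biased brains, a log2 fold change of −0.60. Glycine combined a large change of Gly-GCC-1-X with a member at 0.09, and its isodecoders therefore did not all lie on one side of 0. Relative to the nuclear median, below which 50% of the nuclear isodecoders lie, every isodecoder was lower in glutamate (highest −0.13) but not in alanine (0.13). In proline, 4 of the 5 were lower than the median by at least 0.5, against 14.3% of the nuclear isodecoders. Pro-CGG-3-1 lay practically at the median (−0.0084).

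**Figure D3:**
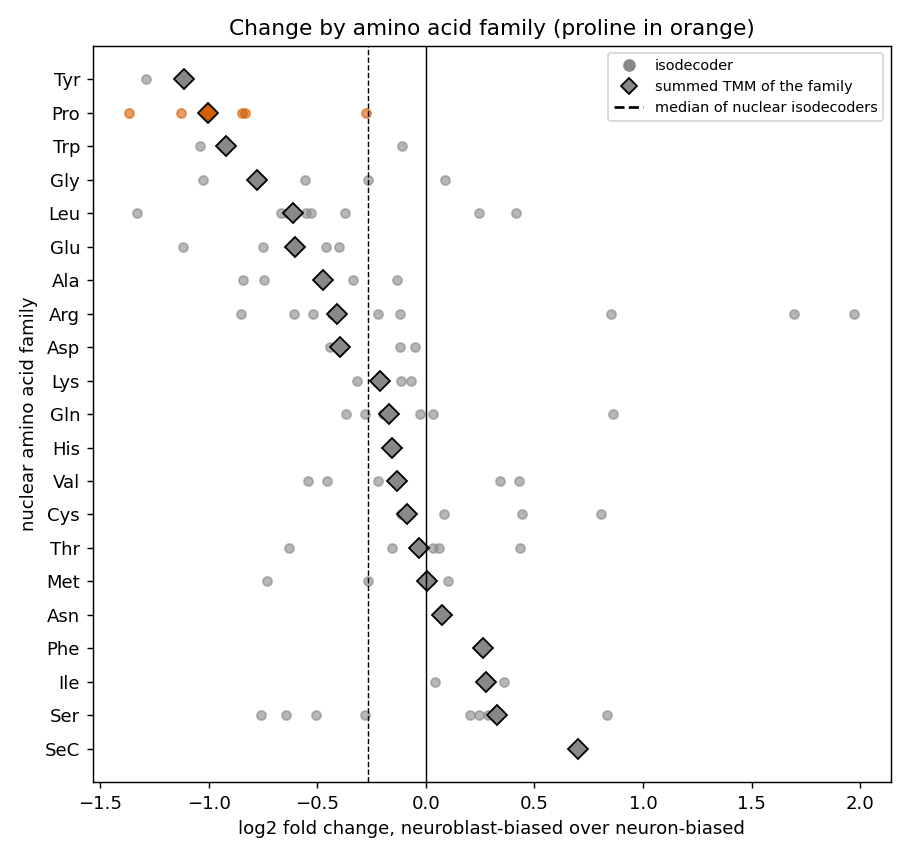
Log2 fold change (neuroblast-biased over neuron-biased) of the summed TMM of each nuclear amino acid family (diamonds) and of its isodecoders (circles), ordered from lowest to highest, with proline in orange. Proline (−1.00) lies between tyrosine (−1.12) and tryptophan (−0.92), and its isodecoders all lie at or below the dashed line, the median of the nuclear isodecoders (−0.27).

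As a share of the nuclear pool, proline tRNAs took 2.03% of the summed TMM in neuroblast-biased brains and 3.30% in neuron-biased brains. They ranked 17 of the 21 families by summed TMM in neuroblast-biased brains and 13 in neuron-biased brains, on values that are not corrected for tRNA length.

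The nuclear isodecoders with the log2 fold change closest to that of the proline pool were Gly-GCC-1-X, at −1.03, Trp-CCA-2-X, at −1.04, and Tyr-GTA-1-X, at −1.11. Likeness was measured as the difference in log2 fold change from the proline pool, which was 0.026, 0.036 and 0.11, and rests on 2 group means. The changes of the proline tRNAs were not limited to those of low abundance. Pro-TGG-1-X and Pro-AGG-1-X had levels above the nuclear median of 76249 TMM in neuroblast-biased brains and 90899 TMM in neuron-biased brains, and the 3 Pro-CGG isodecoders had levels below it.

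**Figure D4:**
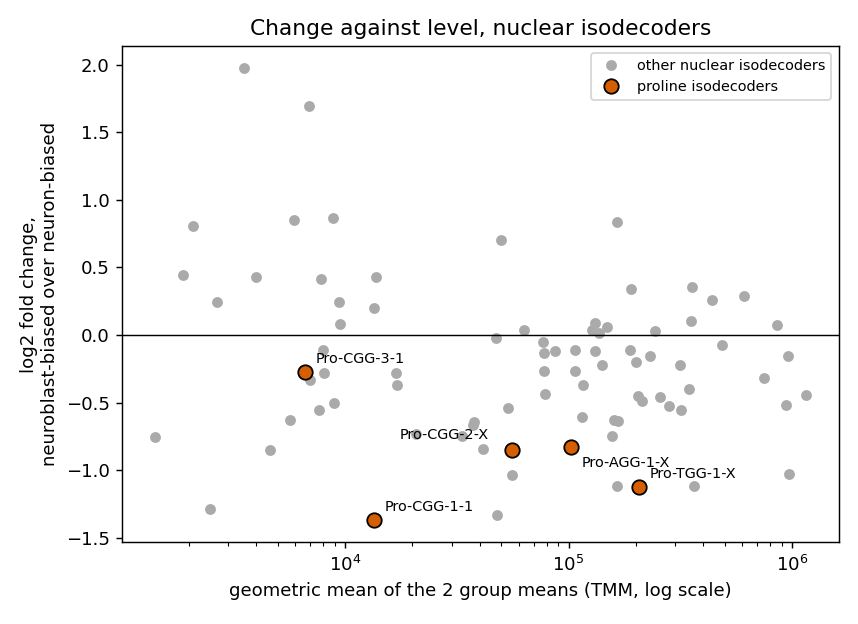
Log2 fold change (neuroblast-biased over neuron-biased) of the 84 nuclear isodecoders against the geometric mean of their 2 group means (TMM, log scale), with the 5 proline isodecoders in orange. Among them, 4 lie at −0.83 or lower, where −0.83 (Pro-AGG-1-X) ranks 12 from the lowest of the 84. Pro-CGG-3-1, the least abundant of the 5, lies at −0.28.

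Proline tRNAs were also compared with the other tRNAs that share the first anticodon base (the wobble position). In each of the classes that hold a proline tRNA, a proline isodecoder had the lowest log2 fold change. Among the 13 nuclear isodecoders with A at this position, Pro-AGG-1-X was lowest at −0.83, followed by Ser-AGA-3-X at −0.76. Among the 29 with T, Pro-TGG-1-X was lowest at −1.13, followed by Arg-TCG-3-X at −0.85. Among the 26 with C, Pro-CGG-1-1 was lowest at −1.37, followed by Leu-CAA-1-1 at −1.33. The medians without proline were −0.24 for A, −0.12 for T and −0.37 for C. The gap to the next isodecoder was small for A and C. On summed anticodon groups, Pro-AGG was the lowest of 8 and Pro-TGG the lowest of 15, while Pro-CGG (−0.89) was the third lowest of 13, above Leu-CAA at −1.22 and Trp-CCA at −0.92.

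Proline is 1 of 8 amino acids with an A-starting anticodon, and its pool was composed differently from the others. Anticodons starting with T held 51.3% of the proline TMM in neuroblast-biased brains and 56.0% in neuron-biased brains. In the other 7 families they held at most 33.1% in neuroblast-biased brains and 31.8% in neuron-biased brains, both in leucine. The ratio of the A-starting to the T-starting anticodons was 0.549 in neuroblast-biased brains and 0.447 in neuron-biased brains for proline, and above 1 in both groups for each of the other 7. Of these 8 families proline also had the lowest summed log2 fold change, followed by leucine at −0.61 and alanine at −0.47. Among the families whose codons have C in the middle, serine (anticodons ending in GA) was at 0.35, threonine at −0.03 and alanine at −0.47 on the log2 scale, against −1.00 for proline.

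**Figure D5:**
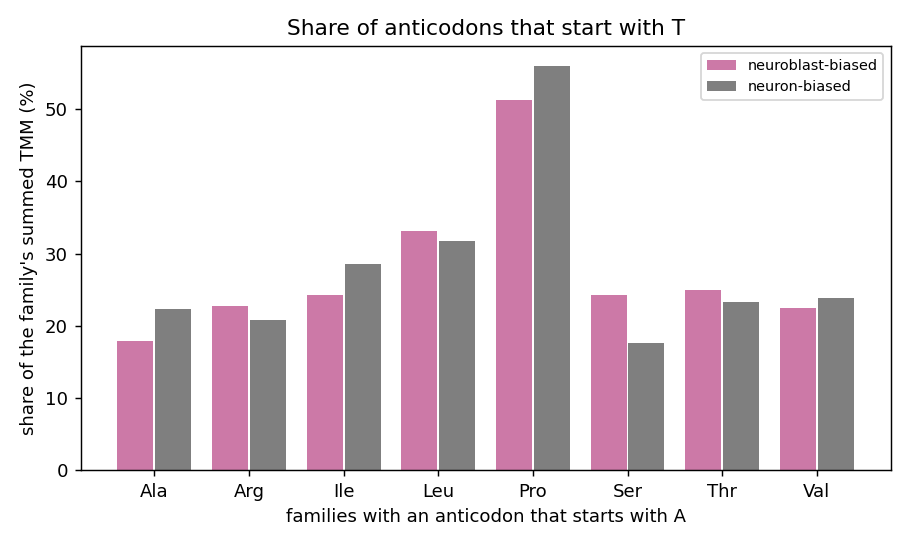
Share of the summed TMM of a family (percent) held by anticodons that start with T, for the 8 nuclear families that also have an anticodon starting with A, in neuroblast-biased (left bar) and neuron-biased brains (right bar). Proline is the only family above 50% in both groups, at 51.3% and 56.0%.

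The proline tRNA genes were located in the RefSeq annotation of Release 6 of the genome, in which each of the 84 nuclear isodecoders was found by name. It lists 17 proline genes, 7 for Pro-AGG-1-X, 5 for Pro-TGG-1-X, 3 for Pro-CGG-2-X and 1 each for Pro-CGG-1-1 and Pro-CGG-3-1. Of these, 4 lie on chromosome arm 2L, 5 on 3L, 5 on 3R and 3 on the X chromosome. Pro-TGG-1-X gave most TMM per gene, 27979 in neuroblast-biased brains and 61108 in neuron-biased brains. Pro-AGG-1-X gave 10980 TMM per gene in neuroblast-biased brains and 19523 TMM per gene in neuron-biased brains, although it has more genes. The median over the nuclear isodecoders was 30264 TMM per gene in neuroblast-biased brains and 42713 TMM per gene in neuron-biased brains. Pro-TGG-1-X was therefore below this median in the neuroblast-biased group and above it in the neuron-biased group, whereas Pro-AGG-1-X was below it in both. The values per gene are not corrected for tRNA length. Identical genes cannot be told apart in the reads, so a value for a single locus exists only for the isodecoders of 1 gene. Even there, reads shared with near-identical isodecoders were split in the counting.

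Both single-gene isodecoders lie on the X chromosome, and they were the ones with the largest and the smallest change. They also had the lowest TMM of the proline isodecoders in both groups. Pro-CGG-1-1 lies at chrX:20025099-20025170 within the span of *Dop2R*, which encodes a dopamine receptor. Pro-CGG-3-1 lies at chrX:3827622-3827693 within the span of *ec*. The annotation used gives spans without exons or strand. Of the Pro-CGG-2-X genes, the one at chrX:18565764-18565835 lies within *Bx*, which encodes a LIM-only transcription cofactor, the one at chr3L:18618390-18618461 within *not*, which encodes a ubiquitin protease, and the one at chr3L:17339909-17339980 within no other gene. In total, 8 of the 17 proline genes lie within the span of another gene.

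The genes of the more abundant isodecoders are clustered. Of the 5 Pro-TGG genes, 4 lie at chr3R:17618110-17645681, a stretch of 27572 bp, and the other at chr3R:18628467-18628538 within *qin*, a piRNA pathway gene. In that stretch, only Pro-TGG-1-1 and Pro-TGG-1-2 have another proline gene within 10 kb, so it is looser than the Pro-AGG clusters. Pro-AGG genes form a cluster of 3 at chr2L:14598859-14599745 and another of 3 at chr3L:13211214-13212436, with a single gene at chr2L:14495878-14495949. The Pro-TGG cluster is interspersed with genes of other families within 10 kb, namely 7 of Ala-AGC-2-X, 2 of Thr-AGT-1-X and 1 each of Val-AAC-1-X and Val-CAC-1-1. The isodecoders of these neighbours lay above Pro-TGG-1-X (−1.13) in log2 fold change. That holds for nearly all nuclear isodecoders, since Pro-TGG-1-X ranked 4 from the lowest among 84. The values were −0.49 for Ala-AGC-2-X, −0.15 for Thr-AGT-1-X, 0.43 for Val-AAC-1-X and −0.54 for Val-CAC-1-1. Only Val-CAC-1-1 has its sole gene there, and the other values also include genes elsewhere. The chr3L cluster of Pro-AGG genes has 1 gene of Leu-CAA-2-X (−0.55) within 10 kb. Pro-CGG-3-1 has 1 gene of Gln-CTG-2-X (−0.20) within that distance, and both of these isodecoders also have genes elsewhere.

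The mitochondrial proline tRNA, *trnP*, is encoded by the mitochondrial genome and serves mitochondrial translation alone. Its mean TMM was 29497 in neuroblast-biased brains and 34343 in neuron-biased brains, a log2 fold change of −0.22, or 0.05 relative to the nuclear median. It was 1 of 3 mitochondrial tRNAs with a lower mean in neuroblast-biased brains, out of 22 with a median of 0.79, and had the second lowest value among them. The summed nuclear proline TMM was 9.25 times that of *trnP* in neuroblast-biased brains and 15.9 times in neuron-biased brains. These ratios are not corrected for length, which is 61 bp for *trnP* and 72 bp for the nuclear proline genes.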

How the data were processed

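Hydro-tRNAseq was performed on 3 samples per group. Per the methods of the study, adaptors were removed (cutadapt) and reads were aligned (subread-align) to a reference of unique mature tRNAs carrying a 3′ CCA. Alignments of low mapping quality were dropped, and featureCounts divided reads with several matches among them. NOISeqBio was used for TMM normalization and for batch correction, with batches that the sources used here do not name. The authors' deposited table gives the group mean of this normalized signal for each tRNA. Splitting of reads makes near-identical isodecoders share signal, and batch correction may change small differences. The table also holds the authors' log2 fold changes, test statistics and q-values, which were not used.

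Log2 fold changes were computed from the means without a pseudocount, with Python 3.11.15, numpy 2.4.6 and pandas 2.3.3, and plotted with matplotlib 3.10.9. Families and anticodon groups were summed. Depth is unknown, and no test between the groups could be made from 1 mean per group. The calculations were tested on simulated data in which every isodecoder of a family had the same shift, without noise. That test checks the arithmetic only. All proline isodecoders and the families next to proline and at the ends of the order were named, with the 3 closest isodecoders in pattern. Tyrosine, glutamate, glycine, leucine and alanine members, neighbouring tRNAs and *trnP* were named for comparison. The proline family, the families and tRNAs it is compared with and the lists were chosen with earlier results of these data known, although membership of the family follows from names alone. Alternatives were other scalings, pseudocounts, a minimum TMM, other ways to combine isodecoders, other wobble penalties and leaving out members. No sequence was printed, as none was used here.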

Additional observations from a re-analysis of the deposited data

How the results depend on the processing

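No paired analysis was possible because the table holds 1 mean per group, and leaving out replicates was not run for the same reason. The read depth is unknown, and without a spread between replicates any change in a printed digit was counted as a move. No log2 fold change of a nuclear proline isodecoder or of their pool changed sign. The order of the CCG and CCU supplies turned round, as given below. With the nuclear median set to 0, the log2 fold changes were −0.56 (Pro-AGG-1-X), −1.10 (Pro-CGG-1-1), −0.58 (Pro-CGG-2-X), −0.0084 (Pro-CGG-3-1), −0.86 (Pro-TGG-1-X) and −0.73 (pool). With equal summed TMM they were −0.57, −1.10, −0.58, −0.010, −0.86 and −0.74 in that order. A pseudocount of 100 gave −1.36 for Pro-CGG-1-1 and −0.27 for Pro-CGG-3-1, and a pseudocount of 1 moved no value.

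The pool changed by −0.89 as the average and −0.85 as the median of its isodecoders' log2 fold changes, and its distance from the median of the other families was then −0.77 and −0.73. A limit of 10000 TMM left out 1 proline isodecoder, Pro-CGG-3-1, and 21 of all nuclear ones, and the pool was then at −1.01 and ranked 3. Pro-CGG-1-1 stayed in, with 8382 TMM in neuroblast-biased and 21619 TMM in neuron-biased brains. This setting therefore still held a proline isodecoder that was under the limit in neuroblast-biased brains. Without Pro-AGG-1-X the pool and the distance were −1.06 and −0.90, without Pro-CGG-1-1 −0.99 and −0.82, without Pro-CGG-2-X −1.03 and −0.86, and without Pro-CGG-3-1 −1.01 and −0.85. Without Pro-TGG-1-X they were −0.86 and −0.69, and the rank was 3. The rank stayed at 2 in 7 of 9 settings. With the initiator Met apart the distance was −0.85. At a threshold of 1 the number of lower proline isodecoders was 2 of 5, against 9.52% of the nuclear isodecoders.

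Averaging isodecoders put the shares at 32.6% (neuroblast-biased) and 28.7% (neuron-biased) for AGG, 7.93% and 7.26% for CGG, and 59.4% and 64.1% for TGG, in that order of groups. CGG drops because its 3 isodecoders are then divided by 3. With the minimum TMM, which left Pro-CGG-1-1 in, they were 28.8% and 25.4%, 18.7% and 17.9%, and 52.4% and 56.7%. Averaging put the relative CCG supply at 0.453 in neuroblast-biased and 0.433 in neuron-biased brains. Without the I:C penalty and U:G reading, CCG was at 0.401 and 0.340 and CCC at 0.549 and 0.447. In both settings CCG lay below CCU, which stayed at 0.549 in neuroblast-biased and 0.447 in neuron-biased brains. The proline share of the nuclear pool was 2.00% in neuroblast-biased and 3.28% in neuron-biased brains with the minimum TMM, and 1.92% and 3.20% of all tRNAs.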
